A study of Homo sapiens with 6 samples.

Results

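The wtAPE1 line derives from the human embryonic kidney line HEK293, and in it doxycycline switches on a wild-type copy of APE1. It was sampled untreated and after doxycycline at 2 µg per ml for 16 h, and these 2 samples of the 6 in the series, taken as 1 difference per array row, are described here across genes. The series also holds a HEK293 line with the empty vector and a line (ubAPE1) with an inducible ubiquitin-APE1 fusion, each sampled the same way. The cultures of all 6 groups carried puromycin at 1 µg per ml, also those without doxycycline. Each deposited column is the authors' mean of 3 biological replicates, so the spread between cultures cannot be seen, and each construct is represented by a single line.

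APEX1 encodes APE1, the main enzyme that cuts DNA at abasic sites, the step of base excision repair that follows the removal of a damaged base by a glycosylase. A DNA polymerase then fills the gap and a ligase closes it, with PARP enzymes and scaffold proteins acting on the open strand. Through a separate, redox activity APE1 reduces transcription factors such as AP-1, HIF-1 and STAT3, which is why it is also called Ref-1. Adding doxycycline to the wtAPE1 line asks which transcripts differ when more of the wild-type protein is made, and the vector line shows the same drug without the transgene.

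Of 15492 array rows (transcript clusters), the 11619 with a mean over the 6 columns of at least 5.03 log2, the 25th percentile, were kept. The response of a row is its log2 level with doxycycline minus that without, relative to the median row, whose difference as deposited was 0.07 for wtAPE1, -0.05 for the vector and -0.13 for ubAPE1. With 1 averaged column on each side the response was not tested on its own, and rows are called higher or lower where they differed by at least 1.5-fold.

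APEX1 was the named gene with the highest response. In the wtAPE1 line it stood at 9.5 log2 untreated and at 10.67 after doxycycline. The vector line held 9.54 and 9.66, and the ubAPE1 line 9.82 and 10.58. Without doxycycline the wtAPE1 line thus lay within the range of the other lines once columns were centred, and with doxycycline it lay above all 4 of their columns. The response was 1.10 log2, or 2.15-fold, against 0.17 in the vector line and 0.88 in the ubAPE1 line. Only 1 row, not tied to a single gene, was higher, at 1.27. Native and introduced APEX1 were not separated in this row, and how far its probes read the introduced copy was not examined.

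The rest of the profile moved little. Over all kept rows the SD of the wtAPE1 response was 0.20 log2, and 71.1% of rows lay within 0.2 log2 of the median row. At least 1.5-fold higher were 59 rows (0.508% of rows) and at least 1.5-fold lower 49 (0.422%), 108 together (0.93%), of which 41 and 34 carried 1 gene symbol. Without subtracting the median the split was 123 higher and 34 lower, so higher rows made up 78.3% of calls as deposited and 54.6% relative to the median row. The empty vector line, which has no transgene, had 40 rows higher (0.344%) and 70 lower (0.602%), or 0.947% in all. The ubAPE1 line had 141 higher (1.21%) and 443 lower (3.81%). The number of rows past 1.5-fold in the wtAPE1 line was therefore close to that in the vector line. At a 2-fold limit 2 rows were higher and 5 lower. Rows just inside the 1.5-fold limit were MAP1LC3B at 0.59 and H4C2 at -0.59, and just outside it FAM149B1 at 0.58 and TPRKB at -0.58.

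**Figure D1:**
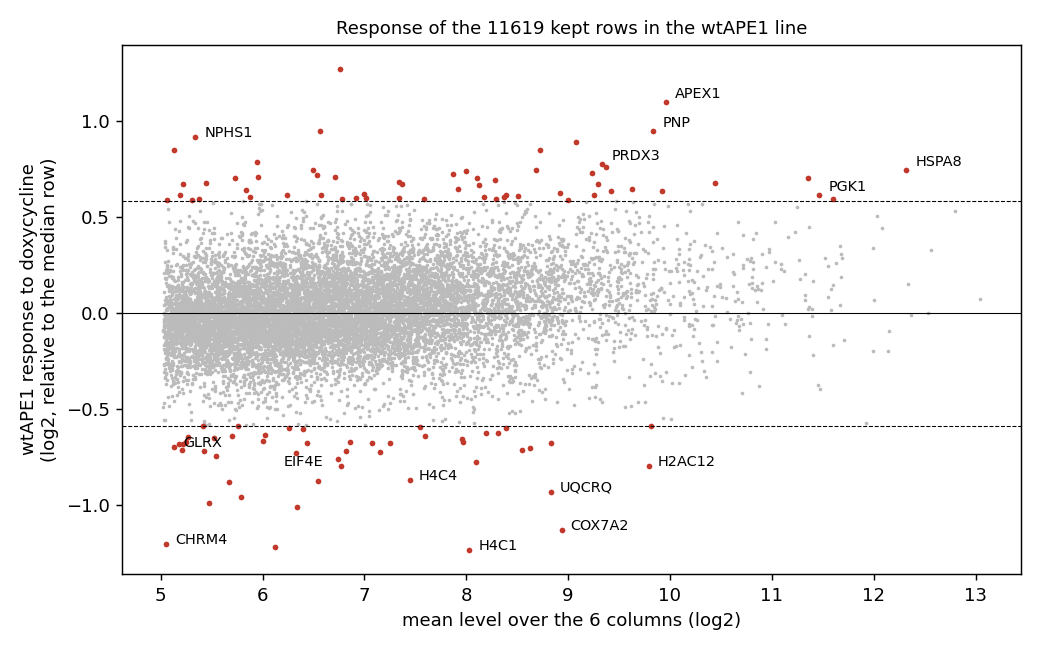
Response of each of the 11619 kept rows to doxycycline in the wtAPE1 line (y axis, log2 relative to the median row) against its mean level over the 6 columns (x axis, log2), with dashed lines at 1.5-fold and rows past them in red. APEX1 stands at 1.10, and the 49 rows below the lower line include H4C1 and COX7A2.

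After APEX1, the highest named rows had varied functions. ZNF706, a small zinc finger protein, stood at 5.57 and 6.59 log2 without and with doxycycline in the wtAPE1 line, against 6.79 and 7.20 in the vector line and 6.55 and 6.64 in the ubAPE1 line. Its response was 0.95, and the gene's other kept row had -0.08, so the array gives no single value for it. PNP, purine nucleoside phosphorylase of the purine salvage pathway, also had a response of 0.95. Its level was 8.99 and 10.02 in the wtAPE1 line, 10.12 and 10.20 in the vector line and 9.88 and 9.80 in the ubAPE1 line. The wtAPE1 column without doxycycline was the low one, and the column with doxycycline lay among those of the other lines.

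PNP lies 2 genes from APEX1 in the order of the RefSeq gene table. Of the genes between and around them, OSGEP, a tRNA-modifying enzyme, had a response of 0.18, PIP4P1, a lipid phosphatase, 0.10 and PARP2, a poly(ADP-ribose) polymerase of DNA repair, 0.24. In the ubAPE1 line, where APEX1 stood at 0.88, PNP stood at 0.05. The high value of PNP was thus not shared by its measured neighbours nor by the line with the fusion.

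NPHS1, the kidney slit-diaphragm protein nephrin, was higher in both lines with an APE1 transgene. Its level was 4.75 and 5.74 in the wtAPE1 line, 5.20 and 5.50 in the vector line and 4.99 and 5.84 in the ubAPE1 line, near the lower limit of the kept rows. Responses were 0.92, 0.35 and 0.98. LPCAT3, which places polyunsaturated chains in membrane phospholipids, stood at 8.52 and 9.49 (response 0.89), against 8.96 and 9.05 in the vector line and 9.25 and 9.18 in the ubAPE1 line. PLRG1, a splicing factor of the PRP19 complex, stood at 7.96 and 8.89 (response 0.85), against 9.02 and 9.22 in the vector line and 8.93 and 8.36 in the ubAPE1 line. Of these, LPCAT3 was the one whose level with doxycycline lay above all columns of the other lines after centring.

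PRDX3, the mitochondrial peroxiredoxin that removes hydrogen peroxide, had levels of 8.72 and 9.57 in the wtAPE1 line, 9.47 and 9.59 in the vector line and 9.37 and 9.31 in the ubAPE1 line, a response of 0.78. HSPA8, the constitutive HSC70 chaperone, had levels of 11.76 and 12.58, against 12.36 and 12.26 in the vector line and 12.34 and 12.62 in the ubAPE1 line, a response of 0.75. Both were low without doxycycline in the wtAPE1 line. With doxycycline and after centring, HSPA8 lay within the range of the other lines and PRDX3 above all of their columns. SINHCAF, a subunit of a SIN3 histone deacetylase complex, had a response of 0.75 from 5.84 to 6.67, against 6.95 and 6.66 in the vector line and 6.61 and 6.26 in the ubAPE1 line. ELOF1, a transcription elongation factor, also had 0.75, from 8.06 to 8.88, where the vector line held 8.75 and 8.77 and the ubAPE1 line 8.73 and 8.88. After quantile normalization HSPA8 had 0.49, below the 1.5-fold limit, and APEX1 0.95.

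**Figure D2:**
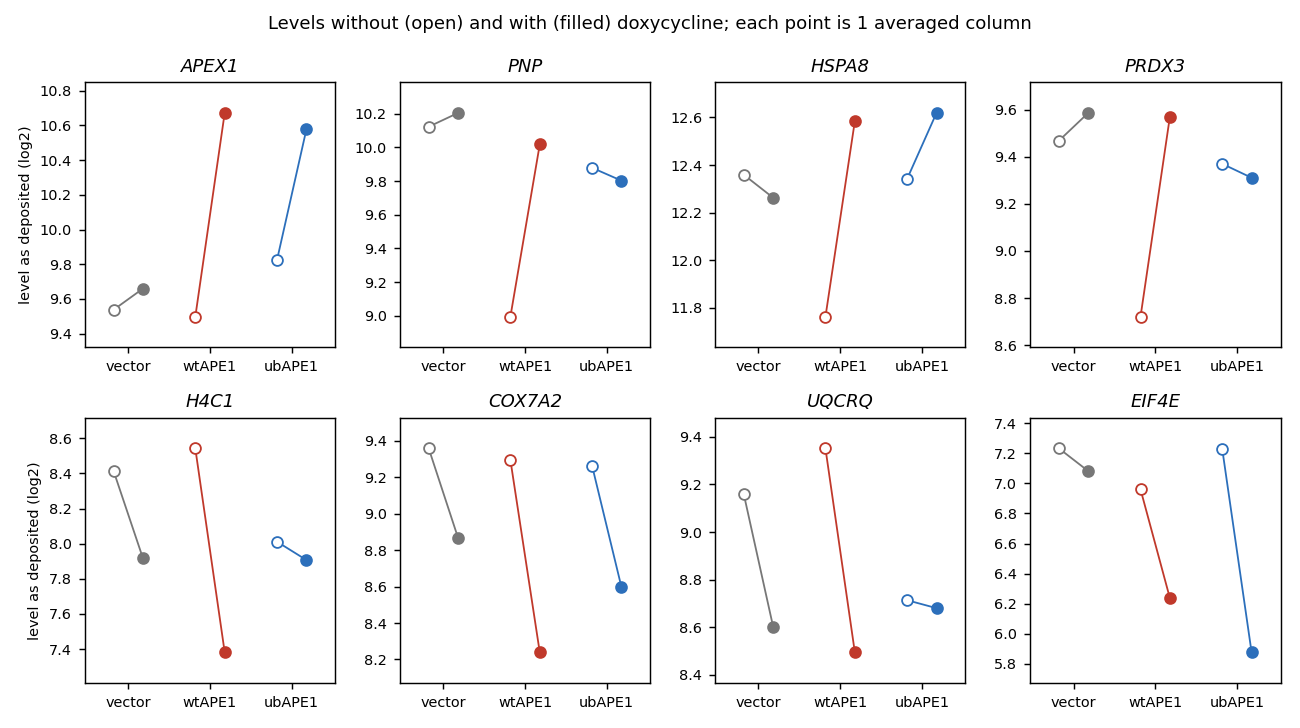
Levels of 8 genes (log2 as deposited, y axis) in the vector, wtAPE1 and ubAPE1 lines (x axis), open without and filled with doxycycline, each point 1 averaged column. PNP, HSPA8 and PRDX3 start low in the wtAPE1 line without doxycycline, whereas APEX1 starts at 9.5, near the other lines, and ends at 10.67.

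This pattern was general among the higher rows. With columns centred, the wtAPE1 column without doxycycline lay below all 4 columns of the other lines in 52 of the 59 higher rows (88.1%), against 2230 of all 11619 (19.2%). With doxycycline, 39 of the 59 (66.1%) lay within the range of those columns and 20 (33.9%) above it, against 78.5% and 12.1% of all rows. In 36 rows the level went from below the range to within it, in 16 from below to above, and in only 4, APEX1 among them, from within to above. The choice of rows by the response favours a low first column. Of the 40 higher rows of the vector line 26 (65.0%) began below all columns of the other lines, and of the 141 of the ubAPE1 line 77 (54.6%). The cause of the low untreated column was not tested.

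**Figure D3:**
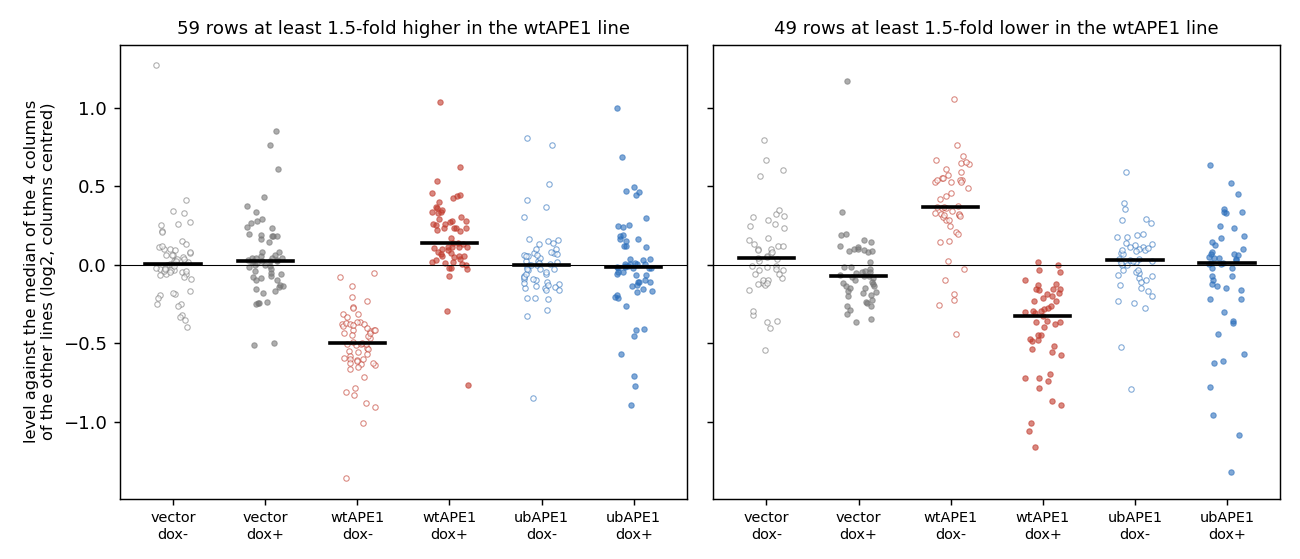
Level of each row past 1.5-fold in the wtAPE1 line in the 6 columns (x axis), as log2 difference from the median of the 4 columns of the other lines after centring (y axis), with bars at the median, open points without and filled with doxycycline. In the 59 higher rows the median wtAPE1 level was -0.50 without and 0.14 with doxycycline, and in the 49 lower rows 0.37 and -0.33.

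Among the lower rows, histone genes and small subunits of the respiratory chain recurred. H4C1, a gene for histone H4, was the lowest row of all. It stood at 8.54 and 7.38 log2 without and with doxycycline in the wtAPE1 line, at 8.41 and 7.92 in the vector line and at 8.01 and 7.91 in the ubAPE1 line, a response of -1.23. H4C4, also for histone H4, went from 7.91 to 7.11, against 7.62 and 7.29 in the vector line and 7.71 and 7.04 in the ubAPE1 line, a response of -0.87. H2AC12, for histone H2A, went from 10.06 to 9.34, against 10.11 and 9.56 in the vector line and 9.93 and 9.76 in the ubAPE1 line, a response of -0.80. In H4C1 and H2AC12 the wtAPE1 pair ran from above all columns of the other lines to below them after centring, and the vector line also had negative responses, -0.45 and -0.50.

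Replication-dependent histones are made in S phase from mRNAs without a poly(A) tail. Of 33 measured, 6 lay above the median row, as 50% of all rows do, and 27 below. Their median was -0.30, and 6 (18.2%) were at least 1.5-fold lower, against 0.422% of all rows. These were H4C1, H4C4, H2AC12, H2BC26 (-0.70), H3C10 (-0.63) and H4C2 (-0.59). The vector line, without a transgene, had a median of -0.36 and 4 genes above, and the ubAPE1 line a median of 0.02 and 18 above. At least 1.5-fold lower in the vector line were H2BC4 (-1.05), H2BC7 (-0.81), H2AC16 (-0.68), H2BC26 (-0.66), H2AC15 (-0.65), H2BC15 (-0.61) and H2AC21 (-0.59). All rows there had a share of 0.602%, and only H2BC26 passed the limit in both lines. The lower histone level with doxycycline was thus not particular to the wtAPE1 line. The genes are short, and with the trend of responses with gene length removed the median was -0.19. It was below 0 under the other alternatives too. Highest were H4C9 at 0.24 and H4C6 at 0.23. Histone genes of one type are nearly identical in their coding sequence, so a row may read more than 1 of them.

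Of the 6 histone genes at least 1.5-fold lower in the wtAPE1 line, 4 had an entry in the RefSeq promoter table. They are shown by the 120 bases before their start (GRCh38.p14), as genes of 1 family that were lower side by side. Capitals mark TATAAA and CCAAT, each also searched as TTTATA and ATTGG for the other strand. H2BC26 lies at chr1:228457983-228458102 on the plus strand, H3C10 at chr6:27809931-27810050 on the plus strand, H4C2 at chr6:26027284-26027403 on the minus strand and H4C4 at chr6:26189113-26189232 on the minus strand.
H2BC26: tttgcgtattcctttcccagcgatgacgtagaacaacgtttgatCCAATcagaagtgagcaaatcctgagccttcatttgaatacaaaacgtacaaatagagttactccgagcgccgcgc
H3C10: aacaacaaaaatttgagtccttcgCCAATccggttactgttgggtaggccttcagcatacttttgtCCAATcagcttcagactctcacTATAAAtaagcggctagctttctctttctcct
H4C2: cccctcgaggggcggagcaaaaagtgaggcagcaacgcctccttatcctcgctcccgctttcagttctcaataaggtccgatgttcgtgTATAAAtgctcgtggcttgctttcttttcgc
H4C4: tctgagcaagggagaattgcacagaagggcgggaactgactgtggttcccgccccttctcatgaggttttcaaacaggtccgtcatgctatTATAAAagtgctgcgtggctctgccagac
TATAAA begins 32, 31 and 29 bases before the start in H3C10, H4C2 and H4C4. Over the measured histone genes with an entry, 15 of 30 (50%) held TATAAA on either strand within 120 bases, against 5.63% of 35116 promoters. CCAAT in either strand was held by 26 of 30 (86.7%), against 20.4%. These are matches of letters, and no binding was measured.

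COX7A2, a small subunit of cytochrome c oxidase, stood at 9.30 and 8.24 in the wtAPE1 line, 9.36 and 8.87 in the vector line and 9.26 and 8.60 in the ubAPE1 line. Its responses were -1.13, -0.45 and -0.54, so it was lower in all 3 lines and past 2-fold in the wtAPE1 line. UQCRQ, a small subunit of the cytochrome bc1 complex, stood at 9.35 and 8.50, against 9.16 and 8.60 in the vector line and 8.71 and 8.68 in the ubAPE1 line. Its responses were -0.93, -0.51 and 0.10. In both genes the wtAPE1 level with doxycycline lay below all 4 columns of the other lines after centring.

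CHRM4, a muscarinic acetylcholine receptor, stood at 5.84 and 4.71 in the wtAPE1 line, 4.49 and 5.17 in the vector line and 4.77 and 5.33 in the ubAPE1 line. Its response was -1.20 against 0.73 and 0.68, so the high column was the untreated wtAPE1 sample. SYP, synaptophysin of synaptic vesicles, stood at 5.83 and 4.92 (response -0.99), against 5.24 and 5.29 in the vector line and 6.06 and 5.48 in the ubAPE1 line. Both are genes of nerve cells that stood near the lower limit of the kept rows. CHRM4 passed the limit of 5.03 log2 only through its untreated wtAPE1 column of 5.84, as the mean of its other columns lay below it. The same column makes its difference from the other lines, so the limma calls of CHRM4 further on give no separate support.

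DPH3, which takes part in making the diphthamide residue of elongation factor 2, stood at 5.80 and 5.0 (response -0.88), against 6.16 and 5.78 in the vector line and 5.82 and 5.47 in the ubAPE1 line. EIF4E, the factor that binds the mRNA cap, stood at 6.96 and 6.24, against 7.23 and 7.08 in the vector line and 7.23 and 5.88 in the ubAPE1 line. It was lower in both APE1 lines, at -0.80 and -1.23, and stood at -0.11 in the vector line. CEBPZ, a nuclear protein of ribosome assembly, stood at 6.53 and 5.87 (response -0.73), against 6.98 and 6.47 in the vector line and 6.08 and 6.07 in the ubAPE1 line. Of the 49 lower rows, 34 (69.4%) began above all 4 columns of the other lines and 30 (61.2%) ended below all 4. The choice of rows by the response favours both. Over all rows the shares were 21.8% and 9.36%, among the lower rows of the vector line 52.9% and 70%, and among those of the ubAPE1 line 52.8% and 90.3%.

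Some rows passed 1.5-fold in the same direction in both lines with an APE1 transgene. For comparison, 1.21% of all rows were higher and 3.81% lower in the ubAPE1 line. Higher in both were 3 rows, 5.08% of the 59 and 2.13% of the 141, namely APEX1, NPHS1 and a row not tied to 1 gene. Lower in both were 6 rows, 12.2% of the 49 and 1.35% of the 443, of which EIF4E, GTF2H5 and LSM5 were named. In the ubAPE1 line, 403 of the 443 lay in the first stretch of rows described further on (4795 rows), and 40 in the second. EIF4E, GTF2H5 and LSM5 lay in the first stretch, as did 35 of the 49 lower rows of the wtAPE1 line. GTF2H5, the smallest subunit of the repair and transcription factor TFIIH, had responses of -0.72 and -0.75, with 0.27 in the vector line. Its level was 7.41 and 6.76 in the wtAPE1 line, 7.28 and 7.50 in the vector line and 7.41 and 6.53 in the ubAPE1 line. LSM5, of the ring that binds the ends of U6 RNA and decaying mRNAs, had -0.63 and -0.96, with 0.02 in the vector line. Its level was 6.0 and 5.44, against 6.51 and 6.49 in the vector line and 6.38 and 5.29 in the ubAPE1 line.

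Across the 11619 rows the wtAPE1 response showed almost no correlation with that of the vector line (Pearson r = 0.02, Spearman rho = 0.00) and ran weakly against that of the ubAPE1 line (r = -0.18, rho = -0.24). Rows are not independent, and these values describe the columns only. With the median taken within each stretch of rows described further on, they were 0.10 and 0.09 for the vector line and -0.29 and -0.36 for the ubAPE1 line. With the trend of responses with gene length removed, Pearson r was -0.03 for the vector line and -0.10 for the ubAPE1 line.

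Rows with 1 symbol were also ranked by how far they lay from the mean response of the other lines. Furthest above was LRIF1, which encodes a protein found at the inactive X chromosome, with a response of 0.57 against -0.22 in the vector line and -1.04 in the ubAPE1 line. RPS27L, a ribosomal protein paralog and p53 target, had 0.29 against -0.91 and -0.73, and SDHC, a membrane subunit of succinate dehydrogenase, 0.53 against -0.05 and -1.08. ATP7A, a copper transporter, had 0.59 against -0.39 and -0.62, and LLPH, a nucleolar protein, 0.72 against -0.27 and -0.46. RPS27L stood out mainly through the negative values of the other lines. Furthest below was CHRM4, then CCT8L2, a chaperonin-like gene (-0.49 against 1.04 and 0.25), H4C1, MARCHF2, a ubiquitin ligase (-0.51 against 0.41 and 0.48), and TNFRSF13C, the BAFF receptor (-0.58 against -0.08 and 0.80).

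A test of this difference was possible across the 6 columns with limma, with 1 residual degree of freedom from the difference between the vector and ubAPE1 responses. Higher at an adjusted p under 0.05 (Benjamini-Hochberg) were 0 rows (0% of rows) and lower 0 (0%), and 451 rows had an unadjusted p under 0.05 (3.88%). In the alternatives below with quantile normalization, centred columns or the gene length trend removed, the prior degrees of freedom were infinite. All rows then shared 1 pooled variance, and the row's own spread did not enter those p-values. The main fit, with 14.3 prior degrees of freedom, took the values as deposited, in which the median row differed by 0.17. In limma the lowest adjusted p was 0.225, that of CHRM4, whose difference was -1.75 as deposited. After quantile normalization of the columns limma called CHRM4 lower and 1 row not tied to a single gene higher, and the same 2 rows were called with columns centred on their medians, where the difference of CHRM4 was -1.92 (adjusted p = 8.44e-05). CHRM4 alone was called with the gene length trend removed (adjusted p = 4.78e-05) and with an intensity trend and robust prior (adjusted p = 0.0126). Over the limma settings that kept its row, the adjusted p of CHRM4 ran from 4.78e-05 to 0.695, the latter without a row filter. As said above, CHRM4 passed the row filter through the column that makes its difference. APEX1 exceeded the mean of the other lines by 0.74 as deposited and was not called. Relative to the median row in each line it exceeded that mean by 0.58, by 0.93 against the vector line alone and by 0.22 against the ubAPE1 line alone. The ubAPE1 line, where APEX1 had 0.88 against 0.17 in the vector line, enters both that mean and the error of the fit. A rise shared by both APE1 lines thus shrinks the difference and widens the error, so this test could not judge the induction of APEX1. On simulated data of 11619 rows this fit recovered 6% of rows changed 2-fold and 99% of rows changed 4-fold, so most simulated rows with a difference of 2-fold were not called. The simulated errors were independent between rows. The tested term held neither the offset of 0.17 nor the step along the table described further on, so the rates on the real columns may differ.

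The responses also depended on the place of a row in the deposited table. The boundary that best split the vector line lay after 4795 kept rows. The median wtAPE1 response was -0.05 in those rows and 0.04 in the other 6824. In the vector line it was 0.07 and -0.05, and in the ubAPE1 line -0.16 and 0.08. In windows of 250 rows the wtAPE1 median was below 0 in 19 of 19 windows of the first stretch and in 5 of 26 of the second, and the vector median was above 0 in 19 of 19 and in 0 of 26.

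Of the 59 higher rows 9 lay in the first stretch and 50 in the second, and of the 49 lower rows 35 and 14. The histone genes measured all lay in the first stretch, APEX1 and PNP in the second. With the median taken within each stretch, an alternative chosen after seeing the data, 49 rows were higher and 51 lower, and APEX1 had 1.06 and H4C1 -1.19. The cause of the step was not tested.

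**Figure D4:**
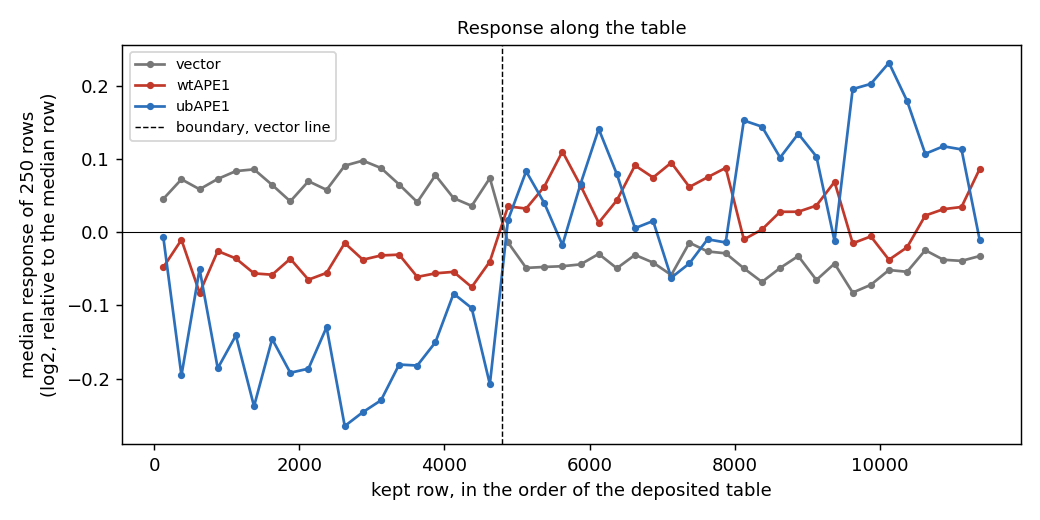
Median response of successive windows of 250 kept rows in the order of the deposited table (x axis, row number; y axis, log2 relative to the median row) in the 3 lines, with the boundary after 4795 rows dashed. The wtAPE1 median is below 0 in all 19 windows before it, where the vector median is above 0.

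Responses followed gene length and level as well. Over 4 equal groups of genes from the shortest to the longest, the median wtAPE1 response was -0.06, -0.02, 0.04 and 0.05. The ubAPE1 medians ran the other way, at 0.17, 0.05, -0.09 and -0.16, and the vector medians were -0.04, -0.01, 0.01 and 0.03. Over 4 equal groups of rows from the dimmest to the brightest the median wtAPE1 response was -0.05, -0.03, 0.01 and 0.08. Medians of lists of bright genes near 0.1 thus lie close to the 0.08 of the brightest group. For each list below the count of genes above the median row is given beside the 50% that holds over all rows, with the median response, and no list was tested.

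Base excision and single-strand break repair, the pathway in which APE1 acts, had 22 measured of 33 listed genes, APEX1 not counted, of which 17 lay above the median row and 0 passed 1.5-fold, with a median of 0.11. The medians of the vector and ubAPE1 lines were -0.02 and 0.00. Among the glycosylases, which remove the damaged base, TDG (thymine from mismatches) had 0.43, UNG (uracil) 0.36 and SMUG1 (uracil) 0.27. MBD4, a second thymine glycosylase, had 0.17, NEIL3 0.05, MUTYH 0.01, OGG1 (8-oxoguanine) -0.08 and MPG (alkylated bases) -0.14.

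The level of TDG was 8.16 and 8.67 log2 in the wtAPE1 line, 8.66 and 8.60 in the vector line and 8.49 and 8.41 in the ubAPE1 line. That of UNG was 8.22 and 8.65, against 8.63 and 8.56 and then 8.70 and 8.59. In both the untreated wtAPE1 column was the lowest of the 6. APEX2, the second abasic endonuclease, had 0.19, from 6.89 to 7.15, with 6.55 and 6.67 in the vector line and 7.07 and 6.97 in the ubAPE1 line.

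Apart from POLL, the measured polymerases and ligases of the list lay within 0.2 log2 of the median row, as 71.1% of all rows did. POLB, which fills the single-base gap, had 0.06 (6.30 and 6.44 in the wtAPE1 line, 6.82 and 6.80 in the vector line, 6.79 and 6.33 in the ubAPE1 line). POLL had -0.21, the lowest of the list, POLD1 -0.01 and POLE 0.16. The ligases LIG1 and LIG3 had 0.02 and 0.12. RFC1, of the clamp loader, had 0.28, and RPA1 and RPA2, which coat single-stranded DNA, 0.42 and -0.04.

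Of the enzymes at strand breaks, PARP1, which marks them with poly(ADP-ribose), had 0.17, from 9.83 to 10.07, with 10.32 and 10.61 in the vector line and 10.32 and 9.91 in the ubAPE1 line. PARP2 had 0.24, and the end-cleaning enzymes TDP1 and APTX 0.10 and 0.05. Of the 22 genes, 9 were below all columns of the other lines without doxycycline, against 19.2% of all rows, and 7 above them with it, against 12.1%.

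Proteins that bind APE1, among them the SET complex, gave 7 of 11 above and a median of 0.13. HSPA8 was the highest and KPNA2, an importin that carries proteins into the nucleus, the lowest at -0.52. SET itself, a histone chaperone, had 0.35 and SIRT1, a deacetylase, 0.26. Medians of this list in the vector and ubAPE1 lines were 0.09 and -0.09, with 8 and 4 of 11 above. The transcription factors under the redox activity of APE1 gave 8 of 14 above and a median of 0.08, with 0 past 1.5-fold. STAT3 had 0.48, HIF1A 0.45 and CREB1 0.40. JUND had -0.35, EGR1 -0.29 and FOS -0.25, and RELA and NFKB1, of NF-kappaB, 0.10 and 0.17.

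The level of STAT3 was 7.78 and 8.33 in the wtAPE1 line, 8.57 and 8.55 in the vector line and 8.37 and 8.32 in the ubAPE1 line. HIF1A stood at 7.91 and 8.44, against 8.77 and 8.56 and then 8.51 and 8.20. For both the untreated wtAPE1 column was again the lowest of the 6. Hypoxia targets, the genes HIF-1 acts on, gave 7 of 16 above and a median of -0.02, from VEGFA, the vessel growth factor, at -0.26 to P4HA1, a collagen prolyl hydroxylase, at 0.43. That median was above 0 without the row filter, with the length trend removed, as deposited and by stretch. Immediate early genes, which include targets of AP-1 and serum response factor, gave 6 of 23 above and a median of -0.10. IER3 had -0.41 and KLF10 0.28. In the vector line, without a transgene, this list had a median of -0.09 and 8 of 23 above. In the ubAPE1 line it had 0.18 and 19 above.

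Respiratory chain genes of the nucleus were mostly below the median row. Complex I, which takes electrons from NADH, gave 4 of 27 above and a median of -0.23. NDUFA1, a small membrane subunit, stood at 9.21 and 8.61 (response -0.68), against 8.85 and 8.80 in the vector line and 8.85 and 8.66 in the ubAPE1 line, and NDUFB3 and NDUFA5 had -0.47 and -0.41. Of the core subunits, NDUFS3 and NDUFV1 had 0.28 and 0.03, and NDUFS7 and NDUFS8 both -0.26. Medians of the vector and ubAPE1 lines were -0.13 and -0.03.

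Complexes II to V gave 6 of 28 above and a median of -0.17, with -0.24 in the vector line and 0.08 in the ubAPE1 line. COX7A2, UQCRQ and COX5B (-0.59) passed 1.5-fold lower, all subunits of complexes III and IV. COX5B stood at 7.75 and 7.23 in the wtAPE1 line, 7.83 and 7.37 in the vector line and 7.43 and 7.67 in the ubAPE1 line, so the vector line had a response of -0.41. The 6 above the median row were SDHC, UQCRC2 at 0.42, SDHA at 0.21 and the ATP synthase subunits ATP5F1C at 0.27, ATP5PF at 0.16 and ATP5F1A at 0.14. With the length trend removed the medians of the 2 lists were -0.19 and -0.14. The mitochondrial genome was represented by ND5 at 0.41 and ND6 at -0.31, of its complex I subunits.

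Other mitochondrial genes stayed near the median row. Mitochondrial ribosomal proteins gave 21 of 64 above and a median of -0.06, with MRPL33 past 1.5-fold at -0.65 and MRPL42 highest at 0.46. Cytosolic ribosomal proteins gave 8 of 25 above and a median of -0.07, from RPS14 at -0.52 to RPL18 at 0.60. As deposited both medians were just above 0, at 0.01. Mitochondrial chaperones and proteases gave 6 of 12 above and a median of 0.04, from HSPD1 (HSP60) at -0.17 to PHB1, prohibitin, at 0.37.

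Glycolysis, which splits glucose to pyruvate, had the highest median of the 31 lists relative to the median row, 0.22, with 14 of 15 genes above the median row. PGK1, phosphoglycerate kinase, stood at 10.92 and 11.61 log2 in the wtAPE1 line, 11.45 and 11.78 in the vector line and 11.48 and 11.56 in the ubAPE1 line. Its response of 0.62 passed 1.5-fold here and was 0.46 after quantile normalization. ENO1, enolase, had 0.53, LDHA, lactate dehydrogenase, 0.45 and GPI, glucose-6-phosphate isomerase, 0.32, and HK2, a hexokinase, was the one gene below, at -0.33. Vector and ubAPE1 medians were 0.10 and 0.06, with 13 and 10 of the 15 above the median row. Of the 15 genes, 11 lay in the brightest group of rows, whose median wtAPE1 response was 0.08. Without doxycycline 5 of the 15 were below all columns of the other lines, against 19.2% of all rows.

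DNA replication genes gave 27 of 34 above and a median of 0.13, against -0.03 in the vector line and -0.12 in the ubAPE1 line, with 0 past 1.5-fold. PRIM1, the primase subunit, had 0.49, GINS3, of the replicative helicase, 0.47, RFC3, of the clamp loader, 0.42 and CCNE2, cyclin E2, 0.41. E2F1, a regulator of S phase, and DUT, which removes dUTP, both had -0.15. The level of PRIM1 was 7.29 and 7.85, against 8.20 and 7.97 in the vector line and 7.82 and 7.67 in the ubAPE1 line. Without doxycycline 18 of the 34 genes lay below all columns of the other lines, against 19.2% of all rows.

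Mitotic genes gave 20 of 36 above and a median of 0.10, against -0.10 and -0.17. NUSAP1, a spindle protein, had 0.49, CDC20, an activator of the anaphase-promoting complex, 0.48 and DLGAP5 0.42, and CDC25C, a phosphatase that switches on CDK1, was lowest at -0.30. Nucleotide salvage and synthesis gave 16 of 25 above and a median of 0.11. PNP led, GART, a purine synthesis enzyme, had 0.32, and NUDT1, which clears oxidised nucleotides, was lowest at -0.40, from 7.54 to 7.22.

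Thioredoxins, peroxiredoxins and NRF2 targets were split evenly, with 11 of 22 above and a median of 0.01. PRDX3 was higher and GLRX, glutaredoxin, at least 1.5-fold lower at -0.70. GLRX stood at 4.99 and 4.37 in the wtAPE1 line, 6.09 and 5.48 in the vector line and 5.26 and 4.63 in the ubAPE1 line, with responses of -0.57 and -0.50 in the latter lines, so doxycycline went with a lower level in all 3. Both wtAPE1 levels of GLRX lay below 5.03 log2, the limit set on row means, and its highest levels were those of the vector line. TXNRD1, thioredoxin reductase, and FTL, ferritin light chain, had 0.33 and 0.34, and GPX1 and HMOX1 -0.42 and -0.28. GCLM, SRXN1 and GCLC, NRF2 targets, lay at -0.01, 0.02 and -0.01.

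Genes of protein synthesis and folding lay slightly above. Translation factors gave 16 of 24 and a median of 0.11, with EIF3L past 1.5-fold at 0.64 and EIF4E at -0.80. Cytosolic chaperones gave 15 of 23 and 0.13, with HSF1, the heat shock regulator, lowest at -0.28. The proteasome gave 17 of 27 and 0.12, with PSMB6, a catalytic subunit, at 0.50. Ribosome biogenesis gave 12 of 17 and 0.10, with UTP4 at 0.54, and splicing factors 19 of 29 and 0.07. After quantile normalization the medians of translation factors and chaperones were both 0.01.

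Stress programmes showed small values. ATF4 targets of the integrated stress response gave 19 of 28 and a median of 0.13, led by AARS1, a tRNA synthetase, at 0.45, and the vector and ubAPE1 lines had 0.10 and 0.12. Endoplasmic reticulum chaperones gave 13 of 17 and 0.08, with HERPUD1 at 0.34 and MANF at -0.40. Targets of p53 gave 11 of 19 and 0.02, with TIGAR at 0.34, RRM2B at 0.32 and BBC3 (PUMA) at -0.19. Cholesterol synthesis gave 9 of 15 and 0.05, and interferon-stimulated genes 4 of 8 and 0.01. None of these 5 lists had a gene past 1.5-fold.

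**Figure D5:**
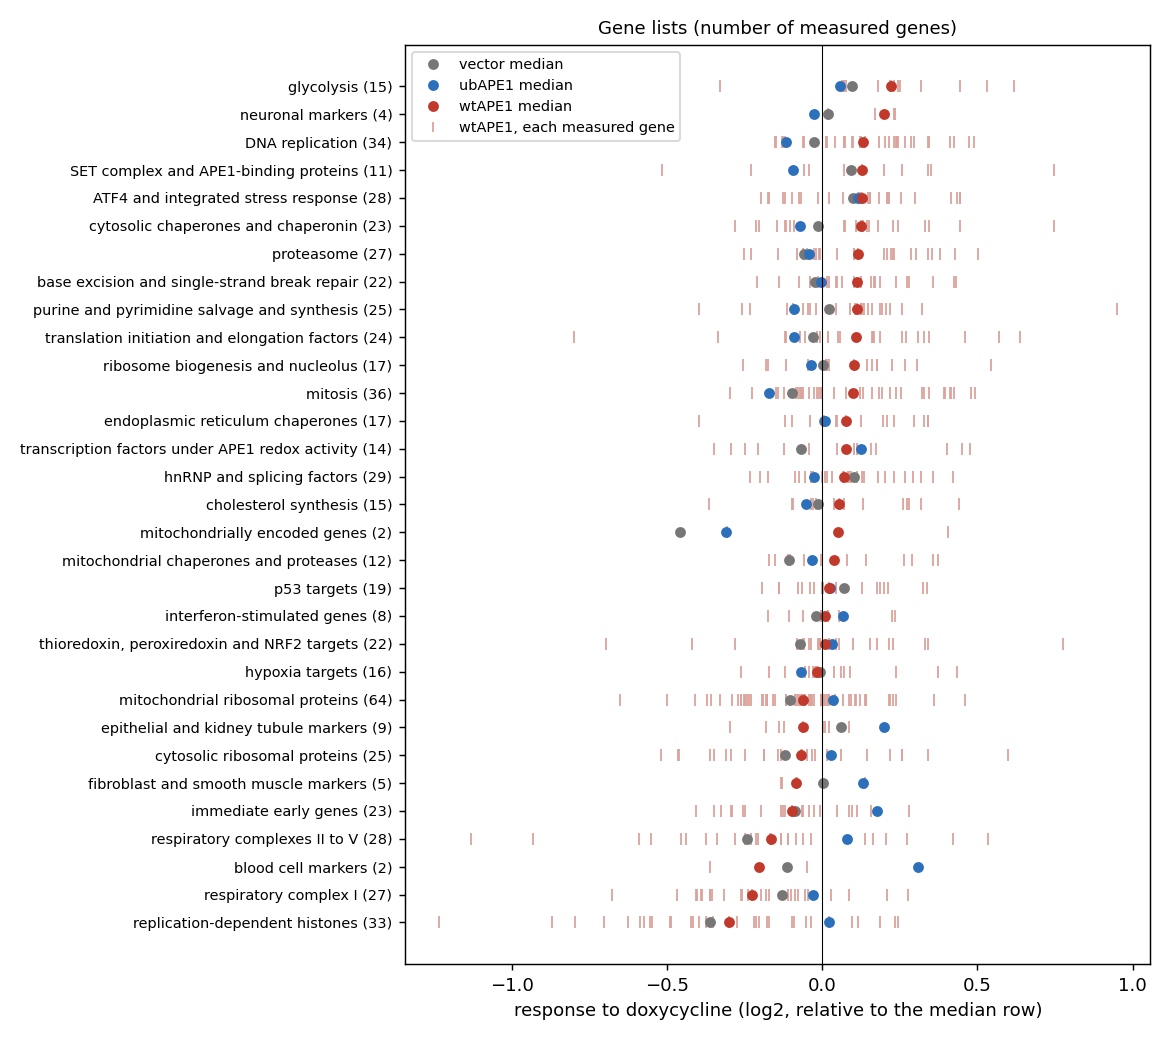
Median response of the 31 gene lists to doxycycline (x axis, log2 relative to the median row) in the wtAPE1, vector and ubAPE1 lines (filled points), with each measured gene of the wtAPE1 line as a tick and the number measured in parentheses. Glycolysis stands highest in the wtAPE1 line at 0.22 and replication-dependent histones lowest at -0.30, where the vector median is -0.36.

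Markers of cell types were used as a check of the label, which calls the cells kidney cells. KRT8, a keratin of simple epithelia, stood at 10.39 and 10.40 in the wtAPE1 line, and PAX2, a factor of kidney development, at 6.16 and 6.24. The tubule genes LRP2 and AQP1 stood at 4.99 and 4.88 and at 5.05 and 5.21, near the lower limit of the kept rows. Epithelial and kidney tubule markers gave 4 of 9 above with a median of -0.06, neuronal ones 4 of 4 with 0.20, fibroblast ones 1 of 5 with -0.08 and blood ones 0 of 2 with -0.20, with 0 genes past 1.5-fold. EPCAM, an epithelial adhesion protein, stood at 5.12 and 4.90 in the wtAPE1 line, at 5.30 and 4.91 in the ubAPE1 line and at 8.03 and 8.30 in the vector line. Of the fibroblast markers, VIM, vimentin, stood at 9.49 and 9.70 in the wtAPE1 line and COL1A1, a collagen chain, at 6.31 and 6.25. Of the neuronal markers, UCHL1, a ubiquitin hydrolase, stood at 10.65 and 10.74 in the wtAPE1 line, NEFL, a neurofilament, at 8.47 and 8.72 and INA, an intermediate filament of neurons, at 7.75 and 8.06, all well above the lower limit of the kept rows. ENO2, a neuronal enolase, stood at 4.96 and 5.27 in the wtAPE1 line, at 5.17 and 4.97 in the ubAPE1 line and at 7.63 and 7.67 in the vector line. The vector line thus differed from both APE1 lines in EPCAM and ENO2 whether or not doxycycline was present.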

How the data were processed

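The deposited table holds log2 expression values of Affymetrix whole-transcript arrays, 1 column per group, which the authors averaged over 3 biological replicates, per the labels. That they are log2 was judged from their range. The method of background correction, summarisation and normalization is not given in the sources used here. Depth has no meaning for arrays, and the 6 columns limit the precision. Genome build hg18 comes from the submitters' processing notes. Of 15492 rows, 12616 carry 1 symbol in the platform annotation, 2031 several and 845 none, and only rows with 1 symbol were named.

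Rows at or above the 25th percentile of row means were kept and the median difference subtracted, in Python 3.11.15. limma 3.58.1 in R 4.3.3 fitted cell line, doxycycline and a wtAPE1 by doxycycline term, with Benjamini-Hochberg adjustment over 11619 rows, and was tested on simulated data, with 5 false calls. The error behind the p-values comes from the difference between the vector and ubAPE1 responses and from a variance pooled over rows, not from the spread between cultures. A gene on several rows was given by its brightest.

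Named were APEX1, the 10 highest and 10 lowest rows with 1 symbol, rows past 1.5-fold the same way in both APE1 lines (up to 5 a direction), the 5 furthest above and below the other lines, all base excision repair genes, and from each other list those past 1.5-fold, or else the largest 2, and its extremes. Other list members were named after their values were seen. Subject, lists and named genes were chosen with earlier results of these data known. Alternatives were other row filters, quantile normalization, a floor, removal of the length trend, values as deposited or centred, a 2-fold limit, 1 row per gene or all rows of each gene, and leaving out a line. Promoter sequences are from RefSeq (GRCh38.p14), where 30 of 33 histone genes had an entry. The genomes differ, so array rows carry no coordinates.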

Additional observations from a re-analysis of the deposited data

Results flagged for a closer look

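Some genes and lists had opposite signs in the wtAPE1 line and another line, with 1 averaged column on each side, and these differences were not tested in pairs. CHRM4, the muscarinic receptor gene, was at -1.20 in the wtAPE1 line, which is -1.93 relative to the vector line and -1.88 relative to the ubAPE1 line. ATP7A, the copper transporter gene, was 1.21 above its response in the ubAPE1 line. RPL18, for a protein of the large ribosomal subunit, was 1.20 above its response in the vector line, with levels of 11.16 and 11.83 log2, against 12.06 and 11.41 in the vector line. The median of mitotic genes was 0.27 above that in the ubAPE1 line, and that of DNA replication genes 0.25 above it. The median of the 2 measured blood cell markers, CD8A and CD68, was lower, with a difference of -0.51.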

How the results depend on the processing

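No paired analysis was possible because each group has 1 deposited column and the labels give no replicate numbers. The 59 higher and 49 lower rows became 135 and 135 without a row filter. They were 2 and 5 with a 2-fold limit. Higher rows numbered 36 with the 50th percentile filter and 123 as deposited, and lower rows 28 with the length trend removed (9647 rows with a length). The limma count beyond the other lines, 0 each way, was 1 higher and 1 lower after quantile normalization or centring of columns, and 1 lower with the length trend removed or with an intensity trend and robust prior. Of 121 named genes 34 passed 1.5-fold, and between 28 and 34 of these still did under each alternative that kept all 121. The alternative with a pseudocount was not run, since the values are log2. The cause of these shifts was not tested.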
